A study of Mus musculus with 30 samples.

Results

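The genes described are the ligands and receptors of axon guidance on a mouse expression array: the semaphorins with their neuropilin and plexin receptors, the ephrins with the Eph receptors, the Slit ligands with the Robo receptors, and netrin-1 with its receptors Dcc and Unc5a to Unc5d. They were chosen by gene symbol alone, with no measured value in the rule, though earlier results of these data were known by then. Each gene was read from its brightest probe set by mean log2 signal. The rule found 66 genes among the 18193 genes with a symbol of their own, measured by 148 of 45037 probe sets. Of these, 59 genes lay above the filter on dim probe sets and were tested. The other 7 were Epha1, Epha2, Ephb4, Robo3, Sema3b, Slit3 and Plxna4os1, and the last is an antisense transcript of the Plxna4 locus that shares the prefix of its symbol but is neither ligand nor receptor.

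Axon guidance cues are secreted or membrane-bound proteins that attract or repel growth cones. Class 3 semaphorins are secreted and bind neuropilins, which pass the signal on through plexins, while most other semaphorins bind plexins directly. Ephrins are tethered to the cell surface and signal by contact, Slits act as repellents through Robo receptors, and netrin-1 attracts through Dcc and repels through Unc5 receptors. In the developing hypothalamus such cues guide tracts and migrating neurons, and several of them also shape blood vessels.

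The series asked how estrogen given at birth alters gene expression in the hypothalamus, in view of the sexual differentiation of the brain. Newborn female C57BL/6J mice of approximately 1.4 g with no genetic modification named in the labels were injected under the skin on the day of birth with 7.5 μg of estradiol benzoate (EB, an ester of estradiol that releases the hormone slowly) in peanut oil, or with the oil alone as vehicle. The whole hypothalamus was taken 1, 3, 6, 12 or 24 h later, which gave 10 groups of 3 mice and 30 arrays, 1 mouse each. No source used here gives the litters of the mice, so the p-values measure the spread between these mice only.

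The deposited signals had array medians from 28.03 to 66.91, and each array was scaled to a median of 41.3. Of 19 genes that define the hypothalamus, 18 were above the filter, the exception being Rax. The 24 h groups stood apart in another tissue: 20 of 21 leptomeningeal fibroblast genes were lower in EB-treated than in vehicle-treated mice, and their summed scaled signal was 1012, 1119 and 5698 in the EB-treated mice against 10240 to 12410 in the vehicle-treated mice. The scaled signal of 18S ribosomal RNA also differed there, from 2067 to 2620 in EB-treated and from 777.3 to 1345 in vehicle-treated mice. Values of 24 h are therefore also given below without the EB-treated mouse at 5698 (replicate 3) where a call of a guidance gene rests on it. Arrays of other times stood apart too. Vehicle 6 h replicate 2 had a summed telencephalon signal of 1407, against 297.6 and 273.1 in replicates 1 and 3 of its group. Its summed signal of the hypothalamus genes, 4315, was the lowest of the 30 arrays. At 12 h the leptomeningeal sums were 9952 to 18880 in EB-treated and 9268 to 13310 in vehicle-treated mice. The part of these differences in the guidance results was not tested. The lists of cell type genes were chosen with earlier results of these data known.

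The set of start regions used here (RefSeq, build GRCm38.p6) covered 55 of the 66 genes, with 71 starts in all. A gene missing from this set may still have a known start. The 250 bases before the start are shown for 4 of the genes that passed a test described below, because estrogen receptors are known to bind response elements in DNA. Start regions of Sema6a, which passed between EB and vehicle, and of Unc5d, which passed between vehicle groups, were not used. The receptor Nrp1 passed between EB and vehicle, whereas the ligands Efna3, Efnb1 and Efnb2 passed only between vehicle groups of different times. Capitals mark GGTCA on either strand (TGACC on the other), the half-site of an estrogen response element. The regions are chr8:128358823-128359072 on the plus strand for Nrp1, chrX:99135811-99136060 on the plus strand for Efnb1, chr8:8661243-8661492 on the minus strand for Efnb2 and, for both listed starts of Efna3, chr3:89322940-89323189 and chr3:89321769-89322018 on the minus strand, each printed 5′ to 3′.
Nrp1: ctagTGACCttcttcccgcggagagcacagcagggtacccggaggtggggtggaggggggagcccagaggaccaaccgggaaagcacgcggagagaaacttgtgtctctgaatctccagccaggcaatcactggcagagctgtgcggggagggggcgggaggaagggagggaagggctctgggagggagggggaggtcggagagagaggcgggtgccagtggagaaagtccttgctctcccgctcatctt
Efnb1: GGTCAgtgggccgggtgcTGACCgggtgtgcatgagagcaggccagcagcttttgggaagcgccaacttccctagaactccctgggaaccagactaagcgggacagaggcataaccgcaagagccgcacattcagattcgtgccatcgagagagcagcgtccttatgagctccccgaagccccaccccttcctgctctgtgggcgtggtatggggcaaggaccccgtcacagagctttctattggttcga
Efnb2: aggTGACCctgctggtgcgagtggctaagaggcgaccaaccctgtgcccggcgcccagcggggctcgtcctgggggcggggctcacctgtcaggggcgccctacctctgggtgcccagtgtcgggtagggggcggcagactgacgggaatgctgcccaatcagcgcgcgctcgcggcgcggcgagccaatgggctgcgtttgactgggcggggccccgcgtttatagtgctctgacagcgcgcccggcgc
Efna3, start 1: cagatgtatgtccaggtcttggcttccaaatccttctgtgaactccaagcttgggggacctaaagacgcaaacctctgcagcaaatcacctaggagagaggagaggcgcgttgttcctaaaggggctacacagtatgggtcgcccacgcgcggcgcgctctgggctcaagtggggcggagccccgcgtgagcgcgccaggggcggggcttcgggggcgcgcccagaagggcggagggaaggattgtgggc
Efna3, start 2: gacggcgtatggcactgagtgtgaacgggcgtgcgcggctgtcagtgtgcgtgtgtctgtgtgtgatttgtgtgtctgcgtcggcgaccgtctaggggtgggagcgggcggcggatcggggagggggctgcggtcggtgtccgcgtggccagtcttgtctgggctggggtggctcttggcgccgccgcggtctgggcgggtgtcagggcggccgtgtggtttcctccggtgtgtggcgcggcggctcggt
The half-site began 246 bases before the start of Nrp1, 250 and 232 bases before that of Efnb1 and 247 bases before that of Efnb2, and neither listed start of Efna3 had one. It was present in 29.6% of the members' start regions and in 35.2% of all 32851 regions of the same length. The full palindrome GGTCANNNTGACC, which reads the same on both strands, was in 0 of the 71 regions of the members and in 21 of all 32851 (0.0639%). A match of these letters is a description of the window and not a binding site.

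Very few guidance genes differed between EB-treated and vehicle-treated mice, and their share at 24 h was near that of all probe sets. By limma with Benjamini-Hochberg adjustment over all 27022 probe sets, at an adjusted p under 0.05, 0 of the 59 genes passed at 1 h, where 0.0037% of all probe sets did, and 0 passed at 3 h against 0.474% of all probe sets. None of the 59 passed at 6 h or 12 h, where 0% of all probe sets did. At 24 h 2 genes passed, Nrp1 and Sema6a, both lower, or 3.39% of the 59. Of all probe sets 2.77% passed in either direction, 2.19% lower and 0.581% higher. Averaged over the 5 times 0 passed, against 0.074%, and the test of whether the effect of EB differed between times also found 0, against 0.951%.

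Counts by rules without adjustment were set beside the share of all probe sets. Here and in every such share, a member counts by its brightest probe set only, while all probe sets include the dimmer ones of a gene. At an unadjusted p under 0.05 by limma the 1 h comparison had 4 genes (6.78% of the 59, with 8.63% of all probe sets), the 3 h comparison 4 (6.78% and 12.8%), the 6 h comparison 5 (8.47% and 6.02%), the 12 h comparison 9 (15.3% and 6.57%), the 24 h comparison 11 (18.6% and 15.7%), the average 1 (1.69% and 8.69%) and the test between times 15 (25.4% and 16%). The share was near that of all probe sets at 6 h and 24 h and above it at 12 h and between times. At 12 h 7 of the 9 genes were on the lower side (11.9%, with 3.4% of all probe sets). Arrays of EB-treated and vehicle-treated mice did not overlap for 9, 8, 5, 8 and 16 genes at 1, 3, 6, 12 and 24 h, or 15.3%, 13.6%, 8.47%, 13.6% and 27.1% of the 59, and for 17.6%, 14%, 9.98%, 11.3% and 24.1% of all probe sets. The ratio of mean signals reached neither 2 nor 0.5 for any of the 59 genes at any time. Of all probe sets 0.0925%, 0.0666%, 0.0296%, 0.0962% and 0.0962% reached 2 at these times, and 0.0407%, 0.17%, 0.104%, 0.0259% and 0.537% reached 0.5.

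The map of log2 fold changes places all 59 genes side by side. The median of the members was 0.07, 0.11, 0.02, -0.04 and -0.06 from the first time to the last, beside 0.02, 0.05, 0.02, -0.01 and -0.01 over all probe sets. Without scaling, the medians of all probe sets moved to -0.07, -0.20, 0.07, -0.15 and 0.22 at the same times, and the members' medians moved with them to -0.03, -0.13, 0.07, -0.19 and 0.17. The direction of the members' median therefore turned with the scaling except at 6 h and 12 h. The differences from the median of all probe sets were 0.04, 0.07, 0.00, -0.04 and -0.05 under both. They had to be the same, because scaling shifts all probe sets of an array alike.

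**Figure D1:**
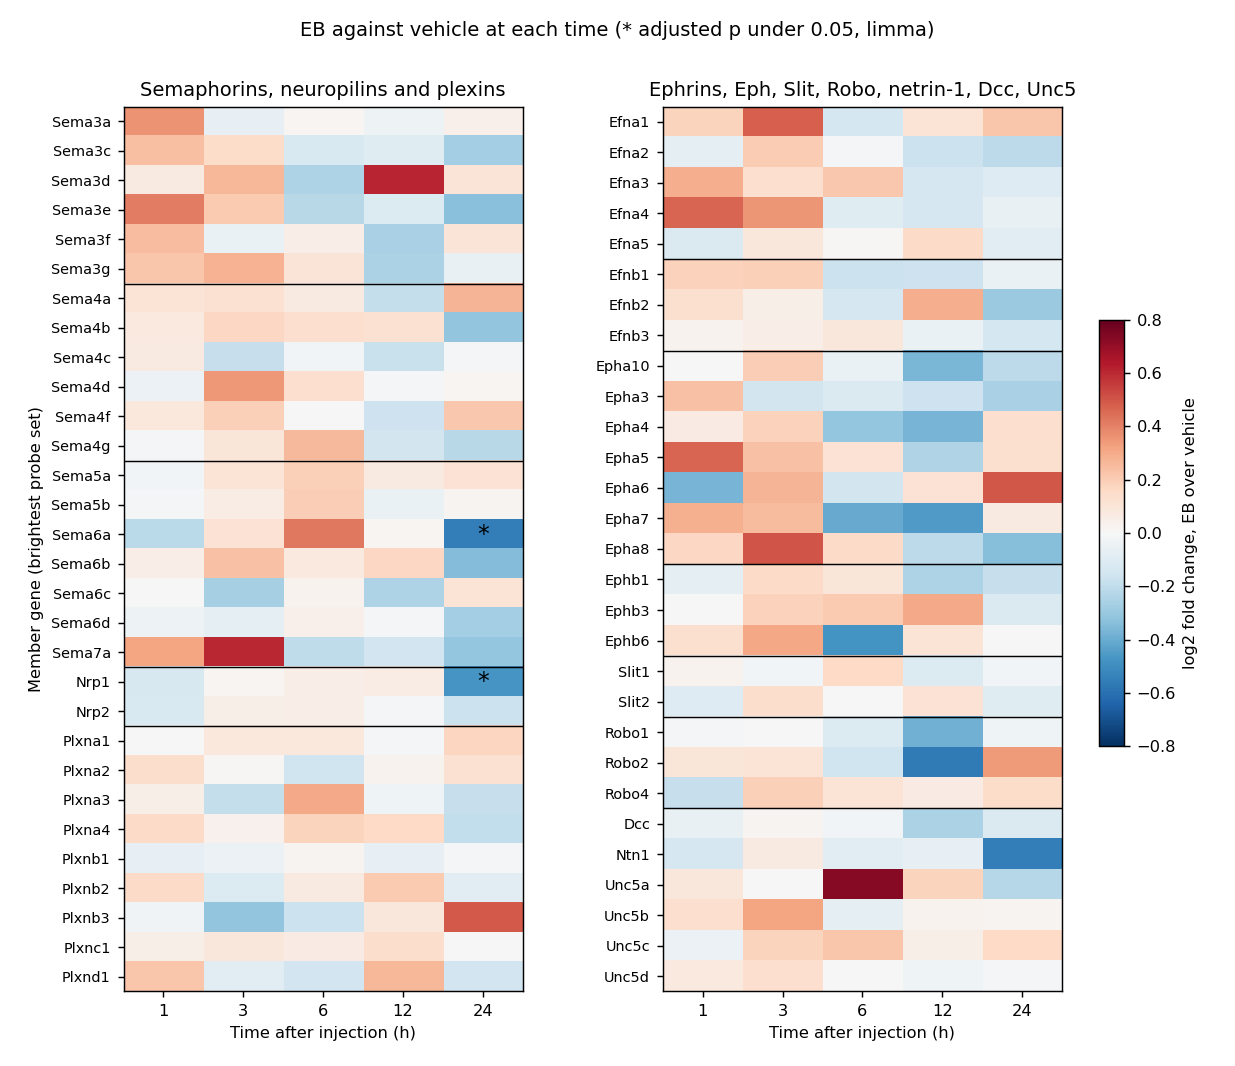
Log2 fold change of EB-treated over vehicle-treated mice (colour, from blue for lower to red for higher) of the 59 genes (y axis, grouped by family with lines between families) at each time (x axis, h); a star marks an adjusted p under 0.05 by limma. Stars stand only at 24 h, on Nrp1 and Sema6a, and the largest positive value is that of Unc5a at 6 h, 0.73.

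Among the semaphorins, the transmembrane ligand Sema6a was lower in EB-treated mice at 24 h. Its scaled signal was 256.8, 169.9 and 252.5 in the EB-treated mice and 295.4, 307.7 and 384.8 in the vehicle-treated mice, so that the groups did not overlap and the EB-treated mouse of replicate 2 was the lowest of the 6. The log2 fold change was -0.56 (standard error 0.14, adjusted p = 0.0245 from limma, n = 3 per group). Because the hypothalamus was measured as bulk tissue, fewer cells that make a transcript and less transcript per cell cannot be told apart, here and for every gene below. The call was lost without EB 24 h replicate 2, at -0.36 (adjusted p = 0.234 from limma), and without vehicle 24 h replicate 3, at -0.44 (adjusted p = 0.151), and it held without EB 24 h replicate 3, at -0.65 (adjusted p = 0.0172). The other pair of Sema6a probe sets, with mean signals of 32.6 and 41.7, were at -0.31 and -0.20 and did not pass (adjusted p = 0.597 and 0.712 from limma).

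At earlier times Sema6a lay on either side of the vehicle. At 6 h its signal was 297.2 to 370.5 in EB-treated and 209.2 to 280.6 in vehicle-treated mice, with a log2 fold change of 0.42 that did not pass (adjusted p = 0.553 from limma). At 1 h it was 216 to 248.2 in EB-treated and 258.8 to 299.7 in vehicle-treated mice, at -0.21 (adjusted p = 0.694). The groups of 1 h, 6 h and 24 h thus did not overlap, in opposite directions. The test of whether its effect differed between times missed the threshold (adjusted p = 0.0513 from limma), and 1 gene, Sema6a, passed it with low signals raised to 16 or with the replicate number as a block.

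Neuropilin-1, the co-receptor of Sema3a and of a vascular growth factor, was the receptor that differed at 24 h. Nrp1 read 957.3, 918 and 823.1 in the EB-treated mice and 1360, 1287 and 1100 in the vehicle-treated mice, and every EB-treated mouse was below every vehicle-treated one. The log2 fold change was -0.47 (standard error 0.11, adjusted p = 0.0128 from limma, n = 3 per group). From 1 h to 12 h its group means lay between 962.6 and 1122 in both treatments, and its values were -0.13 to 0.06 on the log2 scale with no call. The 24 h difference came from the brightest of 4 probe sets: the other 3 were at -0.04, -0.09 and -0.19 (adjusted p = 0.879, 0.723 and 0.540 from limma). The call was also lost without vehicle 24 h replicate 1, at -0.41 (adjusted p = 0.0916), without vehicle 24 h replicate 2, at -0.45 (adjusted p = 0.0579), and without EB 24 h replicate 3, at -0.41 (adjusted p = 0.0622).

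Neither call at 24 h held on the signals as deposited. Without scaling, Nrp1 was at -0.24 (adjusted p = 0.356 from limma) and Sema6a at -0.33 (adjusted p = 0.351), in data where the median of all probe sets was 0.22. Relative to the median of all probe sets, Nrp1 was at -0.46 and Sema6a at -0.55 under both scalings. These values had to be the same, because scaling shifts all probe sets of an array alike. The leptomeningeal genes were lower in the same arrays (median -2.33), while 0 of 14 endothelial genes (median -0.20), 0 of 8 mural genes (median -0.23), 1 of 12 pan-neuronal genes (median -0.18) and 1 of 10 astrocyte and radial glia genes (median -0.27) were lower by the same test. The summed signals of all 4 of these lists did not overlap at 24 h and were lower in EB-treated mice: 1529 to 1702 against 1775 to 1965 for the endothelial, 1159 to 1387 against 1409 to 1439 for the mural, 34150 to 36490 against 38870 to 41230 for the pan-neuronal and 11490 to 12760 against 13680 to 14970 for the astrocyte and radial glia genes. Those of the microglia, oligodendrocyte lineage, hypothalamus, telencephalon, thalamus and choroid plexus genes overlapped at 24 h. For example, the microglia genes were at 901 to 987.9 against 936 to 1021. The oligodendrocyte lineage genes were at 2481 to 2789 against 2578 to 2644, and the thalamus genes at 560.1 to 1120 against 544.6 to 839.6. Of all probe sets at 24 h, 2.19% passed as lower, and for 14.3% every EB-treated array was below every vehicle-treated one. A summed signal is weighted to the brightest genes of its list. The part of any of these lists in the 2 calls was not tested.

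**Figure D2:**
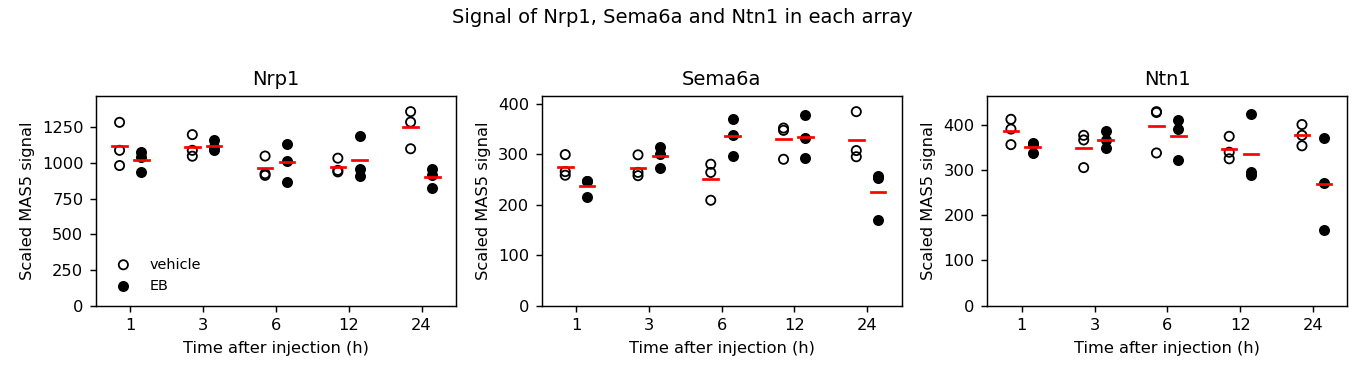
Scaled signal in each array (y axis, MAS5 signal units, from 0) against time (x axis, h) for Nrp1, Sema6a and Ntn1; open symbols are vehicle-treated mice, filled symbols EB-treated mice, and red lines the means of 3. At 24 h the filled symbols of Nrp1 and Sema6a lie below all open symbols, while those of Ntn1 spread from 167.5 to 369.4.

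The other semaphorins gave no call at any time. Sema7a, a membrane-anchored semaphorin that binds plexin-C1 and integrins, had the largest positive value at 3 h. Its signal was 173.3, 187.5 and 220.9 in EB-treated and 112.4, 122.7 and 148.1 in vehicle-treated mice, listed from low to high, at 0.60 (standard error 0.19, adjusted p = 0.147 from limma). The groups did not overlap at 3 h, nor at 1 h, where Sema7a was at 0.32, but they did from 6 h on. The secreted Sema3d was at 0.61 at 12 h (adjusted p = 0.733), from 51.8 to 65.2 in EB-treated and from 33.6 to 43.8 in vehicle-treated mice, again without overlap. The secreted Sema3e was at 0.41 at 1 h (adjusted p = 0.50) and had overlapping groups, and at 24 h it was at -0.33 with every EB-treated mouse, 60.5 to 68.1, below the vehicle-treated mice, 76.1 to 85.3. The largest negative semaphorin value at 3 h was that of Sema6c, -0.26, with overlapping groups.

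Within the membrane-bound classes the 24 h values went both ways. Of the 7 genes of classes 5 to 7, 4 were on the lower side at 24 h with a median of -0.27, and of the 6 class 4 genes 3 were on either side with a median of 0.00. Sema4a and Sema4f were at 0.27 and 0.21 and Sema4b and Sema4g at -0.31 and -0.22, all with groups that did not overlap and none passing. Sema4a and Sema4f were each read from a probe set of the type that can share sequence with other transcripts. All 6 class 3 genes were on the higher side at 1 h, from 0.07 to 0.41, and at 24 h 3 were on either side. As deposited, without scaling, the median of classes 5 to 7 at 24 h was -0.04 and that of class 4 was 0.23.

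The plexins are the signalling receptors of the semaphorins. The 9 measured genes had medians from -0.05 to 0.09 over the 5 times and gave no call. Plxnb3 was at 0.49 at 24 h (adjusted p = 0.380 from limma), with 60.1, 60.5 and 68.1 in EB-treated and 39.2, 42.4 and 53.5 in vehicle-treated mice, which did not overlap. At 3 h it was at -0.32, where 1 vehicle-treated mouse at 72.5 stood above the rest and the groups overlapped. Plxna3, a receptor for class 3 semaphorins, was at -0.19 at 3 h and 0.30 at 6 h (adjusted p = 0.524 and 0.729), with overlap at both times. Nrp2, the receptor preferred by Sema3f, was between -0.17 and 0.06 at every time.

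Netrin-1 itself had one of the largest negative values at 24 h but did not pass. Ntn1 read 369.4, 271 and 167.5 in the 3 EB-treated mice and 353.1, 376.2 and 400.1 in the vehicle-treated mice. The groups overlapped, since EB 24 h replicate 1 lay inside the range of the vehicle while the other EB-treated mice lay below it. The log2 fold change was -0.55 (standard error 0.17, adjusted p = 0.0798 from limma), and it passed only without EB 24 h replicate 1, at -0.82 (adjusted p = 0.0121), and was -0.25 without EB 24 h replicate 3 (adjusted p = 0.437). Averaged over the times, Ntn1 had the lowest value of the 59 genes, -0.15 (95% interval -0.31 to 0.00).

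Unc5a, a receptor for repulsion by netrin-1, had the largest single value of all members. At 6 h its signal was 112.5, 136.8 and 150.7 in EB-treated and 70.3, 73.0 and 98.9 in vehicle-treated mice, from low to high, and the groups did not overlap. The log2 fold change of 0.73 (standard error 0.17) did not pass over all probe sets (adjusted p = 0.370 from limma), at a time when no probe set of the array did. The arrays also did not overlap at 12 h, where EB-treated mice were higher, at 0.18, and at 24 h, where they were lower, at -0.23. Dcc was between -0.25 and 0.03 at every time, and Unc5b, Unc5c and Unc5d gave no call for EB.

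The ephrins and their Eph receptors gave no call for EB at any of the 5 times. Epha5, a receptor of ephrin-A ligands in the forebrain, had the largest value at 1 h, 0.47 (standard error 0.15, adjusted p = 0.351 from limma). Its signal was 650, 653 and 767.4 in EB-treated and 429.8, 534.1 and 536.8 in vehicle-treated mice, from low to high, with no overlap, and its other pair of probe sets were at 0.31 and 0.27. It was also the single member with an unadjusted p under 0.05 averaged over the times, at 0.14, where those probe sets were at 0.02 and 0.05. The ligand Efna4 was at 0.47 at 1 h (adjusted p = 0.510), with 34.2 to 36.6 in EB-treated and 21.5 to 28.4 in vehicle-treated mice. Epha6 had the lowest value at 1 h, -0.37, and the highest at 24 h, 0.49 (adjusted p = 0.733 and 0.393), with dim and overlapping groups from 16.2 to 38.2 at both times.

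Later values of the Eph receptors differed in sign between times. Epha8 was at 0.51 at 3 h (adjusted p = 0.155 from limma), with 57.1, 69.9 and 70.0 in EB-treated and 42.1, 47.1 and 49.1 in vehicle-treated mice, and at -0.34 at 24 h (adjusted p = 0.298), with 42.8, 45.8 and 46.4 against 50.7, 53.8 and 67.5. The groups did not overlap at either time, and the test of a difference between times did not pass (adjusted p = 0.145). Epha7, a receptor for ephrin-A ligands that borders brain regions, was at -0.41 at 6 h, where the groups did not overlap, and at -0.45 at 12 h, where they did. Its other 3 probe sets lay between -0.41 and 0.00 at 6 h and between -0.49 and 0.08 at 12 h, and the 1 at 0.08 differed from the brightest by over 0.5. Epha4 was at -0.31 and -0.37 at these times, also without a call. Ephb6, which lacks kinase activity, was at -0.48 at 6 h (adjusted p = 0.645), and Ephb3 was at 0.30 at 12 h (adjusted p = 0.832), both with overlapping groups.

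Of the ephrin ligands, Efnb2 was at 0.29 at 12 h (adjusted p = 0.745 from limma) and at -0.30 at 24 h (adjusted p = 0.264). At 24 h its signal was 348.6 to 354.3 in EB-treated and 403.9 to 464.4 in vehicle-treated mice, without overlap, and its other probe set was at -0.23. Efna1 was at 0.48 at 3 h (adjusted p = 0.490), from 29.0 to 48.0 in EB-treated and from 19.2 to 31.4 in vehicle-treated mice, with overlap. Averaged over the times Efna1 had the highest value of the 59 genes, 0.17.

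The Slit and Robo genes gave no call either, and the 12 h values of the receptors Robo1 and Robo2 were their largest. Robo1 read 431.4, 521.8 and 565.8 in EB-treated and 568.6, 676.1 and 734.1 in vehicle-treated mice, from low to high, at -0.38 (standard error 0.13, adjusted p = 0.644 from limma), and its other probe set was at -0.40. Robo2 read 36.7, 47.8 and 49.2 against 58.0, 66.2 and 72.7, at -0.56 (standard error 0.20, adjusted p = 0.685). Neither gene's groups overlapped at 12 h. At 24 h Robo1 was at -0.04, with its other probe set at -0.30, and Robo2 was at 0.34 with overlapping groups. The ligands Slit1 and Slit2 lay between -0.11 and 0.16 at every time, and the vascular receptor Robo4 between -0.19 and 0.19.

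**Figure D3:**
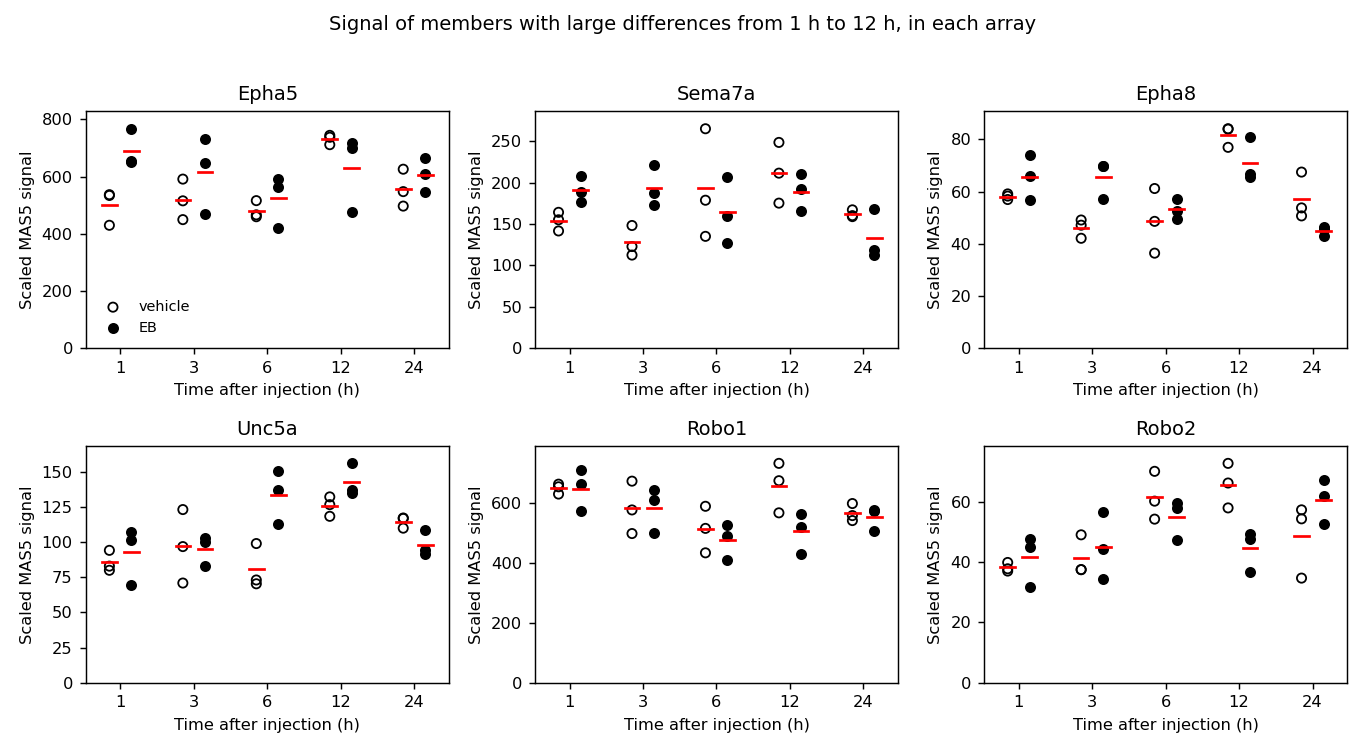
Scaled signal in each array (y axis, MAS5 signal units, from 0) against time (x axis, h) for Epha5, Sema7a, Epha8, Unc5a, Robo1 and Robo2; open symbols are vehicle-treated mice, filled symbols EB-treated mice, and red lines the means of 3. The groups separate at 1 h for Epha5, 3 h for Sema7a and Epha8, 6 h for Unc5a and 12 h for both Robo genes, and none of these differences passed over all probe sets.

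Genes that act with or downstream of the guidance receptors also gave calls at 24 h, each of them lower. Of 70 such genes tested from 5 lists, 6 were lower and 0 higher at 24 h (8.57%, with 2.77% of all probe sets in either direction and 2.19% lower). They were 3 of the 5 collapsin response mediators, which carry semaphorin signals to the cytoskeleton, namely Crmp1 at -0.37, Dpysl2 at -0.44 and Dpysl5 at -0.53 (adjusted p = 0.00847, 0.00238 and 0.0187 from limma). The others were the GTPase Rac1 at -0.41 (adjusted p = 0.00393), the Unc5 ligand Flrt3 at -0.50 (adjusted p = 0.0245), and the chemokine Cxcl12 at -1.81 (adjusted p = 0.00484). At 3 h 2 were lower, Rac1 at -0.37 and Chn1, a Rac regulator that acts downstream of Epha4, at -0.44 (adjusted p = 0.0259 and 0.0353; 2.86% of the 70, with 0.474% of all probe sets), and in the other single-time comparisons and the average 0 passed. The effect of EB differed between times for 2 of the 70, Dpysl2 and Rac1 (adjusted p = 0.0418 and 0.0192; 2.86%, with 0.951% of all probe sets). The 24 h values come from the arrays in which the leptomeningeal genes (median -2.33) and the pan-neuronal genes (median -0.18) were lower. The part of these in the calls of the 70 genes was not tested. Values without scaling, with single arrays left out or from other probe sets are not given for these calls. They are thus not shown to be firmer than those of Nrp1 and Sema6a. Without scaling the median of all probe sets at 24 h was 0.22.

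Between 1 h and 24 h after the vehicle alone, more of the guidance genes passed than for EB, and each was higher at 24 h. By limma 4 of the 59 passed, against 6.77% of all probe sets in either direction and 4.97% higher: the ephrin ligands Efna3, Efnb1 and Efnb2 and the netrin receptor Unc5d. The share of the members, 6.78%, was near that of all probe sets. At an unadjusted p under 0.05 there were 17 genes (28.8% of the members and 22.3% of all probe sets), 16 of them higher, and the arrays did not overlap for 20 (33.9% and 30.7%), 18 of them higher. On the higher side alone the shares were 27.1% and 15.2% by the unadjusted p and 30.5% and 19.8% by overlap, and no member's ratio of means reached 2 or 0.5, where 0.185% and 0.237% of all probe sets did. The median of the members was 0.16, beside 0.05 over all probe sets.

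Efnb2, a ligand of arterial cells and of several EphB receptors, had the largest value of the 4 genes. It read 253.8, 296.6 and 349.1 at 1 h and 403.9, 431.9 and 464.4 at 24 h, from low to high, with no overlap, at 0.54 (standard error 0.13, adjusted p = 0.0139 from limma). Efnb1, an X-linked ligand of EphB receptors, read 91.9, 119.8 and 130.4 at 1 h and 144, 150.3 and 174.3 at 24 h, at 0.46 (standard error 0.13, adjusted p = 0.0291). Efna3, a ligand of EphA receptors, read 114.1, 119.9 and 120 at 1 h and 160.6, 161.9 and 180.3 at 24 h, at 0.51 (standard error 0.15, adjusted p = 0.0388). In each of the 3 genes all mice of 24 h were above all mice of 1 h.

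Unc5d read 525.2, 529.1 and 531.7 at 1 h and 632.3, 633.8 and 694.3 at 24 h, at 0.30 (standard error 0.09, adjusted p = 0.0440 from limma). The values between did not lie on a line: the vehicle means of Efna3 and Efnb1 were highest at 12 h, 215.2 and 218.5, and that of Efnb2 at 6 h, 436.3. The other probe sets of the ephrins were also positive, at 0.40 for Efna3, 0.43 and 0.28 for Efnb1 and 0.25 for Efnb2, and none passed. In EB-treated mice, tested only against the vehicle of the same time, none of the 4 genes passed at any time.

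All 4 calls were lost when certain single arrays were left out. Efna3 and Unc5d did not pass without any 1 of the 6 arrays, although their values stayed between 0.45 and 0.53 and between 0.26 and 0.33 (adjusted p from 0.0763 to 0.130 and from 0.0802 to 0.157 from limma). Efnb1 did not pass without vehicle 1 h replicate 3, at 0.32 (adjusted p = 0.205), vehicle 24 h replicate 2, at 0.38 (0.136), or vehicle 24 h replicate 3, at 0.49 (0.0558), and Efnb2 not without vehicle 1 h replicate 3, at 0.43 (0.103), or vehicle 24 h replicate 2, at 0.49 (0.0664). With the replicate number as a block, Unc5d was at an adjusted p of 0.0519. Without scaling, the median of all probe sets was -0.25, and the 4 genes were at 0.24, 0.16, 0.21 and 0.00 for Efnb2, Efnb1, Efna3 and Unc5d with no call. The age of the mouse, the hour of collection and any batch of arrays cannot be told apart in this comparison.

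By family, the 3 ephrin-B ligands had a median of 0.46 and the 5 ephrin-A ligands one of 0.38 in this comparison, or 0.42 and 0.33 relative to all probe sets, and 0.16 and 0.08 without scaling. The medians of the Eph receptors were 0.16 for EphA and 0.08 for EphB, and both turned negative without scaling, to -0.14 and -0.22. Robo4 was at -0.56 (adjusted p = 0.147 from limma) and Robo1 at -0.20, and both had groups that did not overlap, lower at 24 h. Of the genes that act with or downstream of the receptors, 2 of 70 passed, both higher (2.86%, below the 6.77% of all probe sets in either direction and the 4.97% higher). They were the kinase Abl2 at 0.32 and Flrt2, another ligand of Unc5 receptors, at 0.35 (adjusted p = 0.0142 and 0.0462 from limma).

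**Figure D4:**
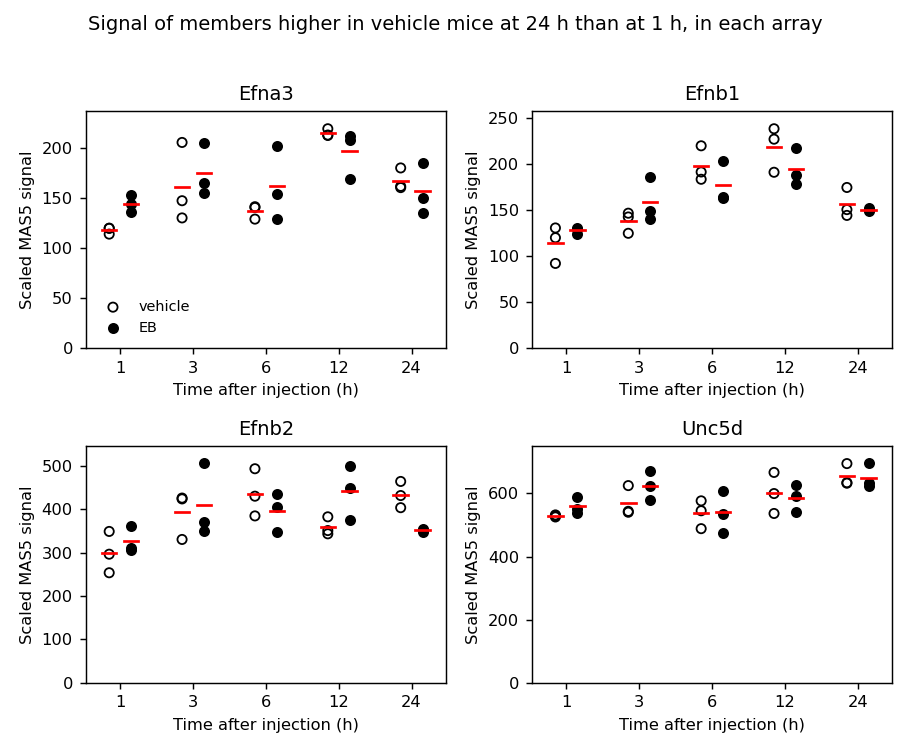
Scaled signal in each array (y axis, MAS5 signal units, from 0) against time (x axis, h) for Efna3, Efnb1, Efnb2 and Unc5d; open symbols are vehicle-treated mice, filled symbols EB-treated mice, and red lines the means of 3. In all 4 genes the open symbols at 24 h lie above those at 1 h, and those of Efna3 and Efnb1 are highest at 12 h.

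The probe sets of a gene served as a further reading of the same arrays. For 32 of the 59 genes there were 51 other probe sets above the filter, and their log2 fold change had the sign of the brightest one in 29, 27, 31, 32 and 25 of 51 cases at 1, 3, 6, 12 and 24 h, in 32 averaged over the times and in 37 for the vehicle comparison. None of the 51 passed in any of these comparisons. The shares of the members given above leave these 51 out, while the shares of all probe sets include them.

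**Figure D5:**
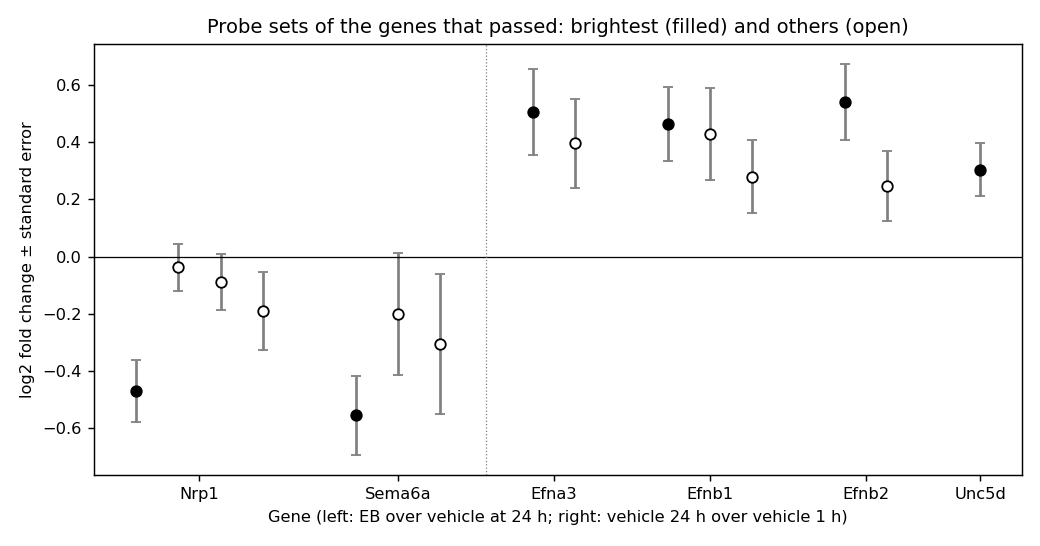
Log2 fold change with its standard error (y axis, bars) of each probe set above the filter of the 6 genes that passed (x axis), with the brightest probe set filled and the others open. The left pair of genes is EB over vehicle at 24 h and the right 4 genes are vehicle 24 h over vehicle 1 h, and each filled point is the farthest from 0 of its gene.

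The size of effect that 3 mice per group could miss can be read from the intervals. The 95% intervals of the log2 fold change lay wholly between -1 and 1 for 59, 58, 58, 58 and 57 genes at the 5 times in order, with a median standard error of 0.14. Averaged over the times the intervals of all 59 lay between -0.31 and 0.43, with a median standard error of 0.06. An exact permutation test of 3 mice against 3 cannot give a p below 0.1.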

How the data were processed

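RNA of the whole hypothalamus of individual mice was hybridised to 30 GeneChip Mouse Genome 430 2.0 arrays. The values deposited by the authors are linear signal intensities from MAS5, whose version and scaling target were not given in the sources used here. For this report the median of every array was brought to the mean of all medians, signals under 1 were set to 1, log2 was taken, and 64 control probe sets and the lowest 40% of probe sets by mean log2 signal were left out. A model of 10 groups over all arrays was fitted with limma 3.58.1 (R 4.3.3; eBayes with an intensity trend), and p-values were adjusted by Benjamini-Hochberg over the 27022 probe sets, with a threshold of 0.05. The fit was tested on simulated data. pandas 2.3.3 and matplotlib 3.10.9 were used for tables and plots.

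Symbols came from the platform annotation (34945 probe sets with 1 symbol, 932 with several, 9160 with none; 0 member probe sets had several). No 2 arrays were identical and 0 columns lacked a sample. All member genes could be named. Values in every array were given for genes that passed and, per EB comparison, for up to 3 members with the largest change in each direction, with some of these given by range. Genes of the lists of co-receptors, other guidance cues and downstream genes, here called pathway lists, were named where they passed. Sema4a, Sema4b, Sema4f, Sema4g and the range of the Slit genes were added after their values were seen. Members, marker lists and pathway lists were chosen with earlier results of these data known. Alternatives covered scaling, the floor, the filter, array weights, the replicate block, the arrays fitted, the methods' two-factor test, a fold rule, other probe sets and leaving out each array. Their results are given for the members and not for the pathway lists. No promoter entry was used for Sema6a, Unc5d and Ntn1. The number of arrays limits the precision.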

Additional observations from a re-analysis of the deposited data

How the results depend on the processing

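For EB at the first 4 times and averaged over the times, the count of members that passed was 0 under every alternative run. At 24 h it was 2, and 0 without scaling, 1 (Nrp1) with only the 6 arrays compared, 0 by the methods' test, 0 by the fold rule, and 1 to 3 over the arrays left out in turn, with 3 without EB 24 h replicate 1, where Ntn1 passed too. For the effect of EB between times it was 0, and 1 (Sema6a) with signals under 16 set to 16, 2 (Sema4f and Sema6a) with array weights, 1 (Sema6a) with the replicate block, and 0 to 1 over the arrays left out. For vehicle 24 h against 1 h it was 4, and 1 without scaling (Robo4, lower), 2 with quantile normalization (Efna3 and Efnb2), 2 with no filter (Efnb1 and Efnb2), 0 by the methods' test, 0 by the fold rule, and 0 to 2 over the arrays left out, 0 without vehicle 1 h replicate 3 or vehicle 24 h replicate 2. The cause of these changes was not tested. For single genes, a separate tally took the members named in a comparison between 2 groups or averaged over the times, without the test between times and without genes of the vehicle comparison that had not passed. Of these values under the alternatives, 715 stayed on their side of the threshold (a sign could change where neither value passed), 50 lost a call, 1 gained one (Ntn1 at 24 h, above) and 0 calls reversed.

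The replicate numbers gave no clear sign of a pairing of the mice. Over 15 pairs of the same number the correlation of deviations from the group means was -0.13 to 0.09 (median 0.02), and 0 were above 0.1. Over 30 pairs of different numbers it was -0.17 to 0.12 (median -0.02), and 3 were above 0.1. Low correlations cannot exclude a pairing, for example by litter. With the replicate block the 24 h count was also 2, and the block changed the calls of Sema6a between times and of Unc5d in the vehicle comparison (adjusted p = 0.0519). Dim genes had a low signal over background, which limits what can be said of Efna1, Efna4, Epha6 and Sema3d.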
